A study of Mus musculus with 6 samples.

Results

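Cell cycle and proliferation genes were examined in podoplanin-positive stomach fibroblasts of mice with induced gastric cancer (cancer-associated fibroblasts, CAF, 3 libraries) and of control mice (normal, 3 libraries). The members were 39 genes named for DNA replication or mitosis and matched by symbol, of which 38 were among the 14228 genes of the deposited table; Hmgb2 was not analysed here. All mice were iLgr5;GLI2A triple-transgenic animals, aged 8 weeks, so the controls carried the same transgenes. In CAF mice the cancer had been induced with tamoxifen (5 days, in corn oil, by gavage) followed by 3 weeks on doxycycline chow, and their water held doxycycline too during days 1 to 3 of that feeding. The controls were given corn oil and neither drug, so a response of the fibroblasts to the drugs and a response to the tumour cannot be told apart. In this model the drugs switch on an active GLI2 in Lgr5-expressing cells, which in the stomach epithelium are stem cells. Cells were sorted as live, podoplanin-positive and negative for CD31, CD45 and EpCAM, and CAF libraries 1, 2 and 3 held cells of 1, 2 and 2 mice, against 1, 1 and 2 mice for normal libraries 1, 2 and 3. RNA 3′ ends were counted by MARS-seq. The comparison asked how stomach fibroblasts differ between tumour-bearing and control mice.

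A dividing cell passes from G1, in which D- and E-type cyclins act with their kinases, through S phase, in which the MCM helicase, the PCNA clamp and enzymes of deoxynucleotide synthesis copy the genome, to mitosis, which is driven by CDK1 with A- and B-type cyclins and ended by the anaphase-promoting complex. The transcripts of most of these genes rise and fall with the cycle, those of replication genes mainly through E2F factors and those of mitotic genes mainly through the MuvB-based complexes that act at the CHR element of their promoters. Most fibroblasts of an adult stomach are not dividing, and a fibroblast that is activated in a wound or a tumour may or may not divide. In bulk RNA, fewer dividing cells and less RNA per dividing cell cannot be told apart.

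Many but not all member promoters carry the letters of a CHR, an E2F site or a further element, the NF-Y box. The windows of 4 are shown because they belong to members described below: Ccnb2 (B-type cyclin) and Plk1 (polo-like kinase) for mitosis, and Mcm3 and Mcm6 (helicase subunits) for replication. The windows run from 250 bases before to 50 bases after the start site in RefSeq's GRCm38.p6 annotation, 5′ to 3′ along the gene. Capitals mark TTTGAA (the CHR), CCAAT (the NF-Y box) and TTTCCCGC (an E2F site), each on either strand. The Ccnb2 window is chr9:70421505-70421804 and the Plk1 window chr7:122159185-122159484, on the minus and the plus strand. The windows of Mcm3 (chr1:20820263-20820562) and Mcm6 (chr1:128359656-128359955) both lie on the minus strand.
Ccnb2: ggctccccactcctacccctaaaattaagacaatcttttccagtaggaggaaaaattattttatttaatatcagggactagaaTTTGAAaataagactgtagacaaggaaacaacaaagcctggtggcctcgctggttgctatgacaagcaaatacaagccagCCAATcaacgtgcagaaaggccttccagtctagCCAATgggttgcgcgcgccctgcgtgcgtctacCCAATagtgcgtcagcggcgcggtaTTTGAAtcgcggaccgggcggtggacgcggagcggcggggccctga
Plk1: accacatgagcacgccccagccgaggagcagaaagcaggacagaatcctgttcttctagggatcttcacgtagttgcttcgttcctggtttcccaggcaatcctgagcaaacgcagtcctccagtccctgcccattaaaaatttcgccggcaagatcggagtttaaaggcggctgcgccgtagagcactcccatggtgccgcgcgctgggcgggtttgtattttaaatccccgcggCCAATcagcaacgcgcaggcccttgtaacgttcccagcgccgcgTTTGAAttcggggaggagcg
Mcm3: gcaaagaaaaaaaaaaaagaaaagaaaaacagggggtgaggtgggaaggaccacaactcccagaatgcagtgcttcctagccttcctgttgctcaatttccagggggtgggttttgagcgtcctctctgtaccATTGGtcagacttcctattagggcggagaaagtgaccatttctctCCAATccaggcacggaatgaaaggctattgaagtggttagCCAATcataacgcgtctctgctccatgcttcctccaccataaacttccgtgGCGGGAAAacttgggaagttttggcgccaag
Mcm6: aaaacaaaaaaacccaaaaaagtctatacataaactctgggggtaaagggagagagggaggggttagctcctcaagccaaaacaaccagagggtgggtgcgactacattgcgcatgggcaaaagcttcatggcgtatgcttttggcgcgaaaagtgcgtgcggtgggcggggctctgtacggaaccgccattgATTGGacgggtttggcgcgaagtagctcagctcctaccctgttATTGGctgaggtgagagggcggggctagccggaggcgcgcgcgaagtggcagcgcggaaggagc
Of the 38 members in the table, 30 had a window, and TTTGAA was in 14 of these and CCAAT in 24. The windows of Nusap1, Tyms, Mad2l1, Ccne1, Tk1 and Birc5 held neither, nor TTTCCCGC. TTTGAA and CCAAT occurred together in 13 of 19 mitotic members (68.4%) and in 1 of 10 replication members (10%), against 7.12% of the 27025 genes with a window. CCAAT, with or without TTTGAA, was in 80% of the replication members and 84.2% of the mitotic members, against 37.9% of all genes. TTTCCCGC was in 2 members, Mcm3 and Mcm7, or 6.67%, against 1.11% of all genes. Other forms of the E2F site were not sought, so a window without these letters may still hold one. These are letter matches and not measured binding sites.

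The libraries held between 644522 (CAF library 1) and 6422568 (CAF library 2) counts, and normal libraries 1, 2 and 3 held 3259644, 903176 and 768420. Fibroblast markers were present in every library, but normal libraries 1 and 2 also held much gland RNA: the 16 gastric gland markers in the table made up 0.537%, 0.848% and 0.596% of CAF libraries 1 to 3, against 17.5%, 13.8% and 3.99% in normal libraries 1 to 3. Epcam, a gene of the sort gate, stood at 233, 127 and 114 CPM (read counts relative to the scaled total of the library) in the CAF libraries, against 150, 78.5 and 13.8 CPM in the normal libraries. The 8 epithelial markers, Epcam among them, summed to 3904, 1601 and 1548 CPM in CAF libraries, against 4838, 2372 and 1046 CPM in normal libraries, and they differed among themselves: Krt7, Cldn4 and Cldn7 were highest in CAF library 1, and Cdh1, Krt8, Krt18 and Krt19 in normal library 1. The immune markers (9 of 12 in the table) summed to 117, 591 and 150 CPM in CAF libraries, against 30.6, 361 and 35.0 CPM in normal libraries, with S100a8 and Lyz2 at 401 and 128 CPM in CAF library 2 and at 124 and 170 CPM in normal library 2. The endothelial markers (7 of 8 in the table) summed to 58.5, 50.9 and 57.5 CPM in CAF, against 47.7, 64.6 and 22.5 CPM in normal libraries. They went both ways. Mean CPM was higher in CAF for Cldn5, Cdh5 and Kdr, nearly level for Tek (9.83 against 9.74), and lower for Pecam1, Esam and Vwf. Cldn5 was at 8.78, 9.66 and 6.63 CPM in CAF, against 0.408, 0 and 0 CPM in normal libraries. The sort-gate genes Ptprc and Pecam1 were at 0 to 5.52 and 0 to 4.19 CPM in CAF, against 0 to 3.8 and 0 to 9.39 CPM in normal libraries. Pericyte and smooth muscle markers summed to 1211, 1070 and 578 CPM in CAF, against 565, 408 and 643 CPM in normal libraries. Mesothelial markers summed to 168, 199 and 243 CPM in CAF, against 989, 446 and 471 CPM in normal libraries. Of the mesothelial markers only Krt19, also an epithelial marker, had a lower mean in CAF. Epithelial progenitors divide steadily. The part of epithelial, immune, endothelial, pericyte, smooth muscle and mesothelial RNA in the results below was not tested.

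No cell cycle member passed the test between CAF and normal fibroblasts. Of the 38 members, 31 passed the filter on low counts and were tested, 21 with a positive and 10 with a negative log2 fold change, and 0 were called by edgeR's quasi-likelihood test at an adjusted p under 0.05, against 1.1% of the 10148 genes tested (112 genes, with 0.897% higher and 0.207% lower in CAF). A single member (3.23%) had an unadjusted p under 0.05, against 15.3% of all genes, and DESeq2 and limma-voom also called 0 members, against 7.81% and 0.641% of all genes. At an unadjusted p under 0.05 DESeq2 had 2 members (6.45%, against 17.3% of all genes) and limma-voom 1 (3.23%, against 19.4%). The median log2 fold change of the tested members was 0.09, beside 0.06 over all genes tested. In size, without regard to sign, it was 0.36 for members and 0.49 for all genes, or 0.47 for the 8251 genes whose mean level lay in the members' range of 7.31 to 202 CPM. The largest member difference, that of Mcm6, was exceeded by 17.4% of all genes.

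**Figure D1:**
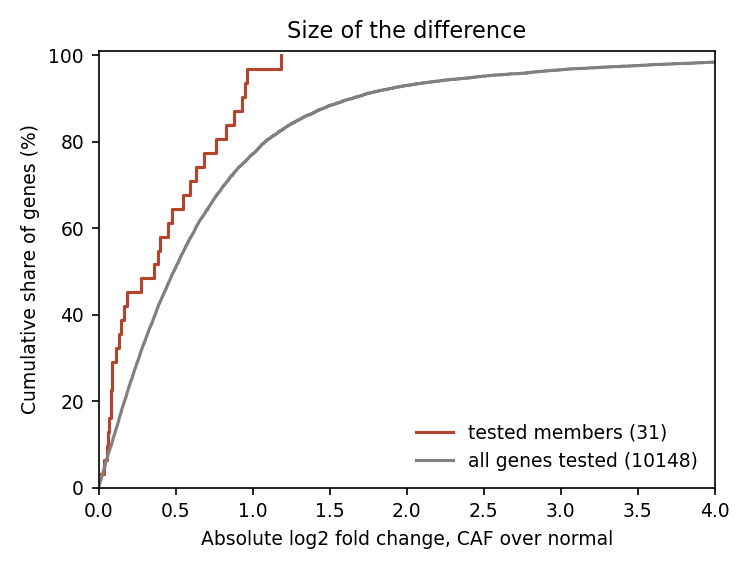
Cumulative share of genes (y axis, percent) by the absolute log2 fold change of CAF over normal (x axis), for the 31 tested members and the 10148 genes tested. The members' curve ends at 1.19, a size that 17.4% of all genes exceeded.

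These results do not show that the levels were equal, because the intervals were wide. The 95% interval of the fold change lay within 2-fold in either direction for 2 of 31 members, Rrm1 and Ube2c, against 11.2% of all genes, and within 4-fold for 23 of 31. Its median width was 2.14 on the log2 scale for members and 2.31 for all genes. In the authors' deposited results none of the 38 members had an adjusted p under 0.05, the lowest in the authors' deposited table being 0.233, while 906 of its 14228 genes (6.37%) had an adjusted p under 0.05.

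**Figure D2:**
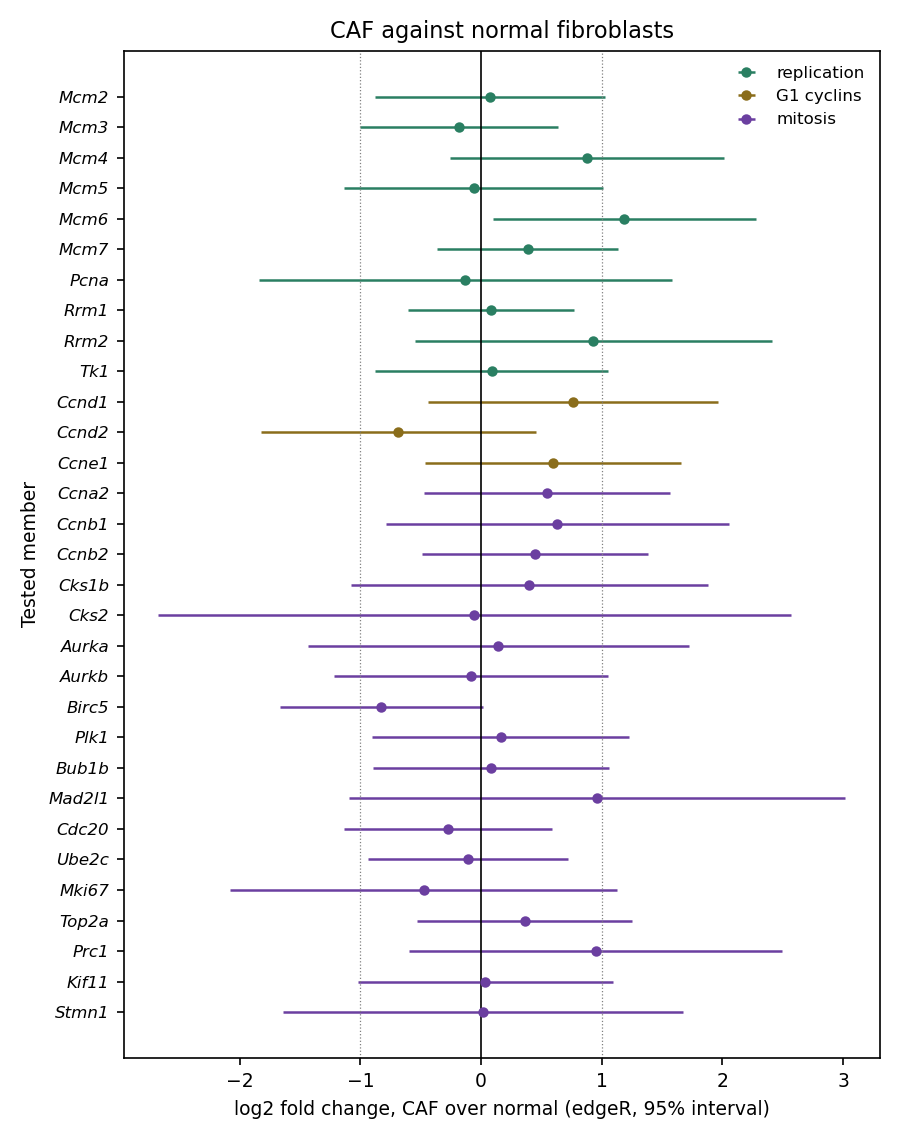
Log2 fold change of CAF over normal (x axis, edgeR; points) with its 95% interval (bars) for the 31 tested members, coloured by role; dotted lines mark 2-fold. Every interval but that of Mcm6 includes 0, and only those of Rrm1 and Ube2c lie within the dotted lines.

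The summed level of all members was 1801, 1243 and 1125 CPM in CAF libraries 1, 2 and 3, against 1511, 1118 and 918 CPM in normal libraries 1, 2 and 3. The groups thus overlapped. Of the 1801 CPM in CAF library 1, Ccnd1 alone gave 471 CPM, against 116 to 168 CPM in the other libraries. The mean over CAF libraries was 1390 ± 361 CPM, against 1182 ± 301 CPM over normal libraries (SD, n = 3 each), a ratio of 1.18. As a share of raw counts the members took 0.191%, 0.140% and 0.130% in CAF libraries, against 0.114%, 0.0978% and 0.0955% in normal libraries; the exact 95% binomial interval, which covers counting error only, was widest in CAF library 1, at 0.180% to 0.202%. This unscaled share includes in its total the gland RNA, which was highest in normal libraries 1 and 2. With normal libraries 1 and 2, the richest in gland RNA, left out, normal library 3 alone remained, which had the lowest member sum of all libraries. The summed ratio was then 0.65 on the log2 scale, beside 0.23 with all libraries, and the cause was not tested.

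**Figure D3:**
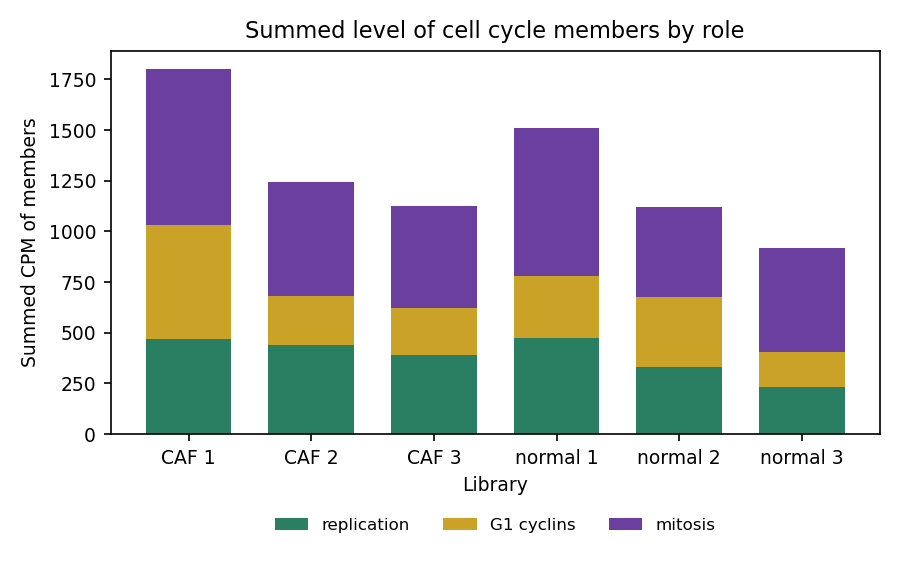
Summed CPM (y axis) of the 38 members in each library (x axis), stacked by role. CAF library 1 is highest at 1801 CPM, of which Ccnd1 gives 471 CPM. Normal library 3 is lowest at 918 CPM, and the groups overlap.

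The 11 replication members summed to 471, 442 and 389 CPM in CAF libraries, against 472, 332 and 234 CPM in normal libraries. The sums of the 23 mitotic members in the table were 771, 560 and 501 CPM in CAF libraries, against 730, 445 and 512 CPM in normal libraries. In each library the replication sum was the smaller, but it was also taken over fewer genes. The ratio of replication to mitosis was 0.611, 0.789 and 0.777 in CAF, against 0.647, 0.746 and 0.457 in normal libraries. Normal library 3 had the lowest replication sum and the lowest ratio, and Cks1b alone gave 163 of its 512 mitotic CPM.

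Among the helicase subunits, Mcm6 (mm10 chromosome 1, 128331590 to 128359664) had the smallest p of all members. It stood at 149, 79.6 and 62.5 CPM in CAF libraries 1 to 3, against 63.7, 30.4 and 30.0 CPM in normal libraries 1 to 3. Normal library 1 lay just above CAF library 3, so the groups overlapped. The log2 fold change was 1.19 ± 0.47 (SE), with a 95% interval of 0.10 to 2.28 and an adjusted p of 0.285 by edgeR. Mcm4, at 10.2, 34.6 and 24.6 CPM in CAF against 13.9, 13.9 and 11.3 CPM in normal libraries, was at a log2 fold change of 0.88 (adjusted p = 0.469). CAF library 1 was the lowest of the 6 for Mcm4 and the highest for Mcm6, and both proteins belong to one complex. For Mcm4, however, CAF library 1 held 7 counts, and its counting interval of 4.12 to 21.1 CPM covered the levels of all normal libraries. The other helicase subunits Mcm2, Mcm3, Mcm5 and Mcm7 had log2 fold changes of -0.18 to 0.39, and Mcm7 shares its 3′ region with Cops6 on the opposite strand.

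Pcna, the sliding clamp of DNA polymerases, varied more within the groups than between them. It was at 17.6, 59.3 and 61.8 CPM in CAF libraries, against 80.4, 64.6 and 8.75 CPM in normal libraries. CAF library 1 and normal library 3 were both low, on 12 and 7 counts, and their counting intervals of 9.07 to 30.7 CPM and 3.52 to 18.04 CPM did not reach the other 4 libraries. The log2 fold change was -0.13, with an interval of -1.84 to 1.58, and against normal library 3 alone it was 2.51 (adjusted p = 0.481 by edgeR).

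Enzymes of deoxynucleotide supply also overlapped between the groups. Rrm1, the large subunit of ribonucleotide reductase, varied least of the tested members, with 43.9, 50.4 and 52.2 CPM in CAF against 55.1, 39.3 and 43.8 CPM in normal libraries (log2 fold change 0.08, interval -0.60 to 0.77). Its partner Rrm2, the subunit whose transcript peaks in S phase, was at 10.2, 24.0 and 17.6 CPM in CAF against 15.9, 7.6 and 2.5 CPM in normal libraries (log2 fold change 0.93, adjusted p = 0.571). Normal library 3, on 2 counts, was the lowest for Rrm2. Thymidine kinase Tk1 was at a log2 fold change of 0.09 (adjusted p = 0.954), and thymidylate synthase Tyms had at most 9 counts in any library and was not tested.

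**Figure D4:**
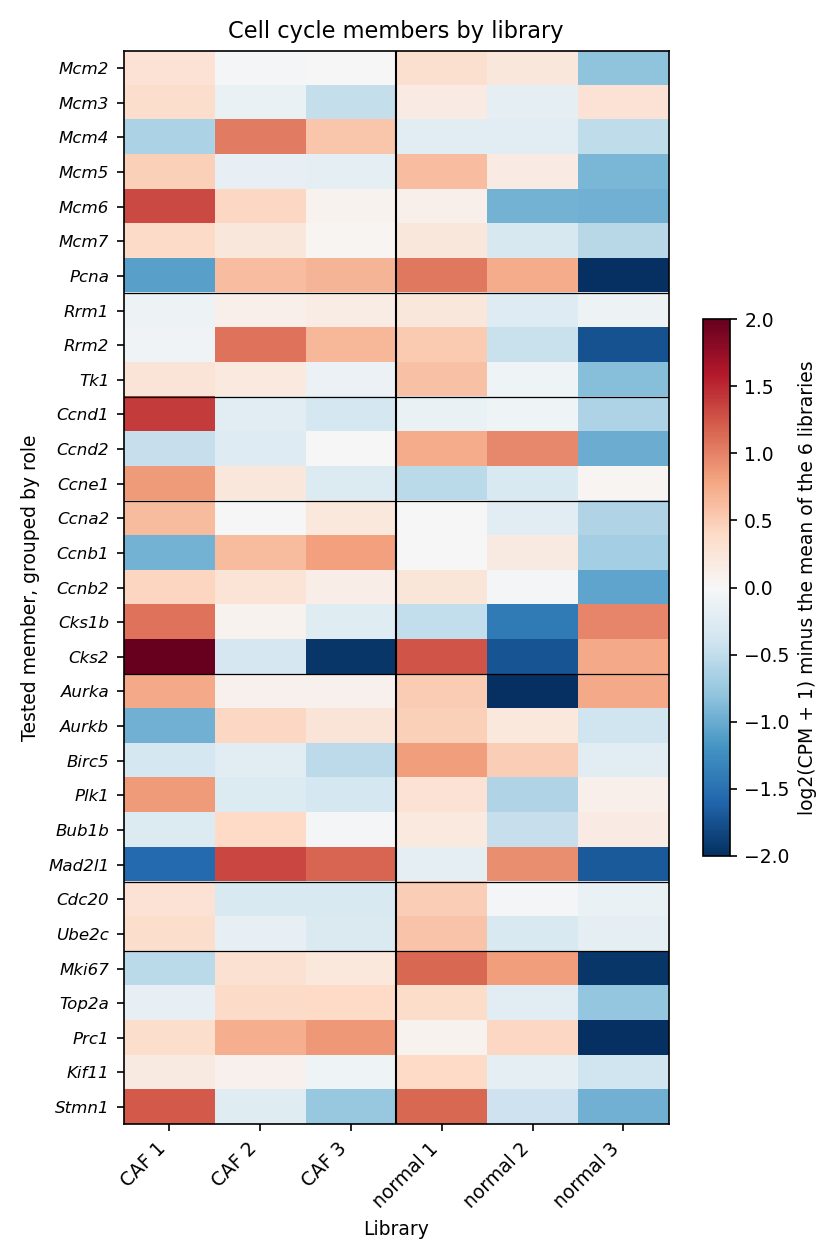
Levels of the 31 tested members (rows, grouped by role) in the 6 libraries (columns), as log2(CPM + 1) minus the mean of the 6 libraries (colour; values past 2 are drawn as 2). The colours follow single libraries, with normal library 3 the lowest of the 6 for 17 members, and not the split between CAF on the left and normal on the right.

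The G1 cyclins had log2 fold changes of both signs, none past the test. Ccnd1 (cyclin D1, which activates CDK4 and CDK6) was at 471, 153 and 139 CPM in CAF libraries, against 162, 168 and 116 CPM in normal libraries. Only CAF library 1 stood apart: the log2 fold change of 0.76 (adjusted p = 0.567) became -0.03 without it. Ccnd2 (cyclin D2) was at 58.5, 67.1 and 81.6 CPM in CAF, against 135, 158 and 40.0 CPM in normal libraries. Normal libraries 1 and 2, those with the most gland RNA, were above all CAF libraries, and normal library 3 was below them. The Ccnd2 log2 fold change of -0.68 (adjusted p = 0.592) was -1.14 without normal library 3 (adjusted p = 0.0471), and this was the only call of a member when 1 library was left out. Without normal library 3, 1 of 33 tested members (3.03%) was called, against 1193 of 11888 genes (10%). Ccne1 (cyclin E1, the partner of CDK2) was at a log2 fold change of 0.60 (adjusted p = 0.623). At their 3′ ends Ccnd1, Ccnd2 and Ccne2 each overlap a gene on the opposite strand. Whether strand was used in counting is not given in the sources used here.

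**Figure D5:**
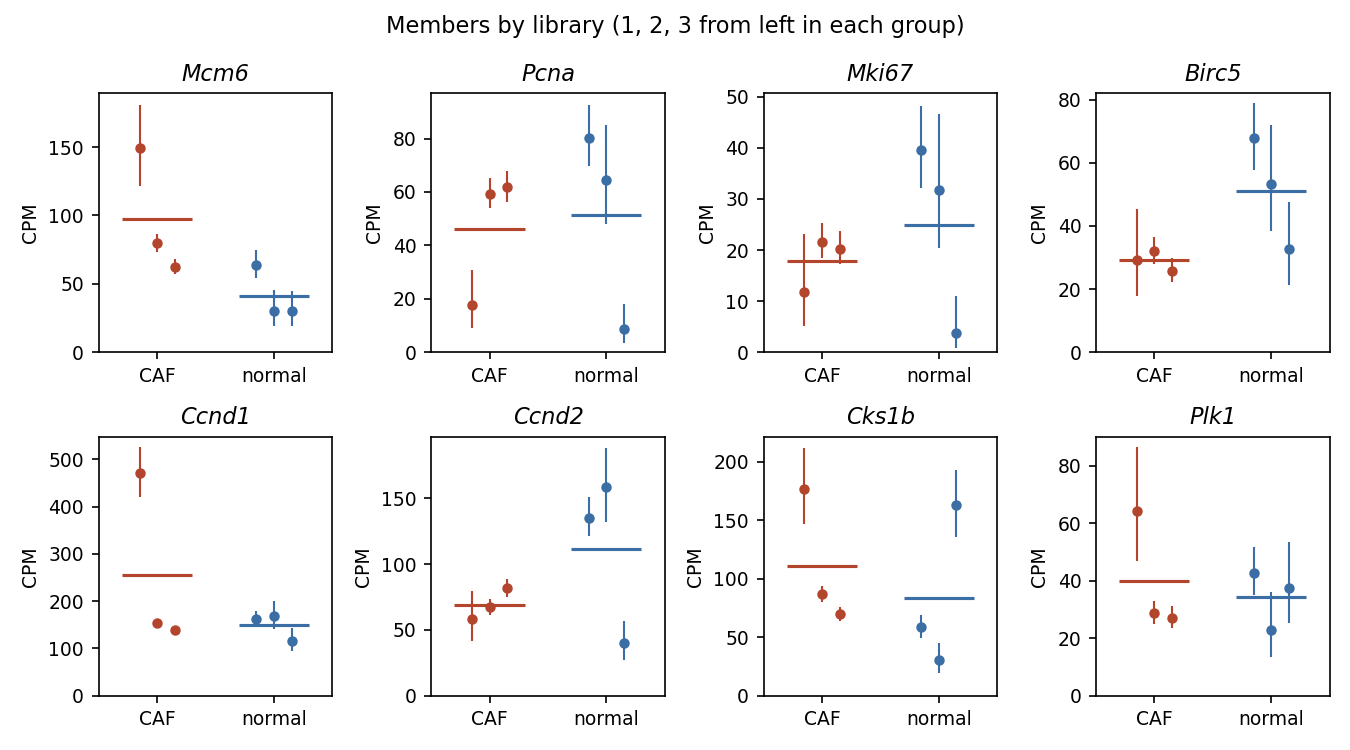
CPM (y axis, linear from 0) of 8 members in the 3 CAF and 3 normal libraries (points, libraries 1 to 3 from left) with exact 95% Poisson intervals (bars) and group means (lines). For Pcna and Mki67 normal library 3 is far below normal libraries 1 and 2, and for Ccnd1 CAF library 1 is far above the rest.

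The 3 mitotic cyclins tested had positive log2 fold changes, none past the test. Ccna2 (cyclin A2; chromosome 3, 36564865 to 36572150) was the one tested member with all CAF libraries above all normal libraries, at 19.0, 12.0 and 13.9 CPM in CAF against 11.8, 10.1 and 7.50 CPM in normal libraries. This is 3.23% of the members, against 10.6% of all genes, and the log2 fold change was 0.55 ± 0.44 (SE; adjusted p = 0.64 by edgeR). Ccnb2 was at 43.9, 39.2 and 35.4 CPM in CAF against 38.4, 31.7 and 15.01 CPM in normal libraries, and its log2 fold change was 0.45 (adjusted p = 0.685). Ccnb1, which has near-identical pseudogenes, was at 0.63 (adjusted p = 0.71). Ccna2 shares its 3′ region with Exosc9 on the opposite strand.

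The small CDK-binding subunits Cks1b and Cks2 divided the libraries in a way that crossed the groups. Cks1b was at 177, 86.9 and 69.7 CPM in CAF, against 58.4, 30.4 and 163 CPM in normal libraries. Cks2 was at 45.4, 8.28 and 2.03 CPM in CAF, against 26.9, 2.53 and 18.8 CPM in normal libraries. CAF library 1 and normal library 3 were high for both, and CAF library 3 and normal library 2 were low for Cks2. Their log2 fold changes were 0.40 and -0.06, and the interval for Cks2, which also has near-identical pseudogenes, ran from -2.68 to 2.57.

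Birc5 (survivin, of the chromosomal passenger complex; chromosome 11, 117849251 to 117855743) had the smallest p of the members with a negative log2 fold change. It stood at 29.3, 32.02 and 25.8 CPM in CAF libraries, against 67.7, 53.2 and 32.5 CPM in normal libraries. All CAF libraries were below all normal libraries, a pattern shown by this 1 member (3.23%) and by 9.35% of all genes (19.9% of all genes did not overlap in one direction or the other), but CAF library 2 and normal library 3 were nearly level. The log2 fold change was -0.83 ± 0.36 (SE), with an interval of -1.67 to 0.01 and an adjusted p of 0.335 by edgeR. Its partner kinase Aurkb had 7.32, 20.6 and 18.4 CPM in CAF against 21.6, 17.7 and 11.3 CPM in normal libraries, a log2 fold change of -0.09 (adjusted p = 0.965). Against normal library 3 alone the Birc5 difference was close to 0, at -0.11.

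The other mitotic kinases and checkpoint genes overlapped between the groups. Plk1 was at 64.4, 28.7 and 27.2 CPM in CAF against 42.8, 22.8 and 37.5 CPM in normal libraries (log2 fold change 0.16, adjusted p = 0.916). Aurka, the kinase of spindle poles, was at 26.3, 16.3 and 16.2 CPM in CAF against 22.0, 2.53 and 26.3 CPM in normal libraries, where normal library 2 had 2 counts. Mad2l1, a spindle checkpoint gene, was at 1.46, 17.3 and 15.1 CPM in CAF against 5.30, 12.7 and 1.25 CPM in normal libraries. CAF library 1 and normal library 3 each had 1 count of Mad2l1, so its log2 fold change of 0.96 had an interval of -1.09 to 3.02. Bub1b had a log2 fold change of 0.08, and Cdc20 and Ube2c, which act in the anaphase-promoting complex, were at -0.27 and -0.11 (adjusted p = 0.802 and 0.929). Cdc20 and Ube2c share their 3′ regions with Elovl1 and Tnnc2 on the opposite strand.

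Mki67, which encodes the proliferation antigen Ki-67 (chromosome 7, 135689784 to 135716361), was at 11.7, 21.7 and 20.3 CPM in CAF libraries, against 39.6, 31.7 and 3.75 CPM in normal libraries. Normal libraries 1 and 2 were the highest of the 6 and normal library 3, on 3 counts, the lowest, so the CAF libraries lay between them. The log2 fold change was -0.48 ± 0.69 (SE; adjusted p = 0.816 by edgeR) with all libraries, -1.01 without normal library 3 and 2.35 against normal library 3 alone. Top2a, the topoisomerase that untangles chromosomes, was at 36.6, 53.8 and 54.5 CPM in CAF against 53.0, 35.5 and 23.8 CPM in normal libraries, with a log2 fold change of 0.36 (adjusted p = 0.735). Prc1, which bundles microtubules of the spindle midzone, was at 14.6, 19.2 and 21.2 CPM in CAF against 11.8, 15.2 and 1.25 CPM in normal libraries (log2 fold change 0.95, adjusted p = 0.582). Normal library 3 was again the lowest, on 1 count, and Prc1 overlaps Rccd1 on the opposite strand. The spindle kinesin Kif11 and the microtubule-destabilizing Stmn1 were at 0.03 and 0.02, and Stmn1 was highest in CAF library 1 (89.2 CPM) and normal library 1 (84.9 CPM).

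Normal library 3 stood below the other normal libraries in most tested members. It lay below both for 22 of 31 tested members (71%) and above both for 4 (12.9%), against 41.9% and 38.3% of all genes tested. It was the lowest of the 6 libraries for 17 members (54.8%, against 20.9% of all genes) and the highest for 0 (against 20.1%). Gland markers (16 of 17 in the table) summed to 5062, 7521 and 5176 CPM in CAF libraries, against 233362, 157860 and 38299 CPM in normal libraries. Squamous forestomach markers (9 of 9 in the table) summed to 74.6, 85.0 and 111 CPM in CAF libraries, against 1883, 2921 and 149 CPM in normal libraries. Among the normal libraries the levels of Mki67, Pcna and Ccnd2 and of both marker lists were lowest in normal library 3, and the part of other cell types in them was not tested. The fibroblast markers summed to 9943, 24941 and 30140 CPM in CAF, against 4980, 9830 and 12356 CPM in normal libraries.

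The libraries also fell on 2 sides by the GC content of the last 500 bases of transcripts, a split noticed after the data were seen. Spearman's rho of centred log2 CPM with that GC content, across genes within a library, was 0.36, -0.41 and -0.42 in CAF libraries 1, 2 and 3, against 0.18, -0.23 and 0.23 in normal libraries 1, 2 and 3. Of the 31 tested members 8 (25.8%) did not overlap between the sides, against 24.8% of all genes. Mcm3, Cks2, Aurka and Plk1 (4 members, beside 9.72% of all genes) were higher, and Mcm4, Ccnb1, Mad2l1 and Prc1 (4 members, beside 15.1% of all genes) lower, in CAF library 1 and normal libraries 1 and 3. The GC content of the higher 4 was 45.6%, 37.2%, 47.2% and 55.4%. That of the lower 4 was 34%, 38%, 35.9% and 45.1%, so the ranges overlapped. Within the sides, the log2 ratio of summed member CPM in CAF over normal libraries was 0.57 on the high-GC side and 0.08 on the low-GC side. Each ratio rests on a lone library in one group, CAF library 1 on the high-GC side and normal library 2 on the low-GC side. In CAF library 1 Ccnd1 alone gave 471 CPM. The part of this split in the results was not tested.

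The 7 members under the filter on low counts were Tyms, Ccne2, Cdk1, Bub1, Cenpf, Tpx2 and Nusap1, and none had more than 34 counts in a library. Cdk1, the mitotic kinase itself, had 0, 14 and 9 counts in CAF libraries, against 1, 0 and 0 counts in normal libraries. Over the pooled libraries its rate ratio was 8.41, with an exact 95% counting interval of 1.37 to 346. The checkpoint kinase Bub1 had 3, 9 and 17 counts in CAF against 2, 0 and 0 in normal libraries, a pooled ratio of 5.30 (1.34 to 45.8). A pooled ratio weights each library by its depth, and CAF libraries 2 and 3 were the deepest. Nusap1, a spindle gene, was at 0, 4.42 and 4.60 CPM in CAF against 2.04, 5.07 and 2.501 CPM in normal libraries, with means of 3.01 and 3.20 CPM, while its pooled ratio was 2.19 (1.15 to 4.61). Cenpf, a kinetochore gene, was at 0, 0.966 and 0.812 CPM in CAF against 0.408, 1.27 and 0 CPM in normal libraries, beside a pooled ratio of 2.38 (0.538 to 21.7). The cyclin E2 gene Ccne2 was at 0, 1.79 and 1.62 CPM in CAF against 0.408, 2.53 and 0 CPM in normal libraries, beside a pooled ratio of 3.05 (0.930 to 15.8). Means of Cenpf and Ccne2 were thus nearly level, at 0.593 and 1.14 CPM in CAF against 0.558 and 0.980 CPM in normal libraries. The spindle gene Tpx2 was at 1.46, 3.04 and 2.84 CPM in CAF against 2.04, 2.53 and 0 CPM in normal libraries, beside a pooled ratio of 2.30 (1.03 to 6.05). Tyms, with 16 counts over the CAF and 10 over the normal libraries, was at 2.93, 0.690 and 1.22 CPM in CAF against 1.63, 2.53 and 5.00 CPM in normal libraries, a pooled ratio of 0.585 (0.250 to 1.44). These ratios set pooled libraries against each other with counting error only, and do not include the spread between mice.

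Other genes of the cycle, taken from 5 lists of 142 genes, did not pass either. Of these, 117 were tested, 0 were called by edgeR, and 6 higher and 2 lower in CAF had an unadjusted p under 0.05 (6.84%, against 15.3% of all genes). limma-voom called 0 of them, with 11 at an unadjusted p under 0.05 (9.4%, against 19.4% of all genes), and DESeq2 called 3 (Ckap2, Cdkn2a and Gas1; 2.56%, against 7.81% of all genes). The median log2 fold change was 0.20, beside 0.06 for all genes. All CAF libraries lay above all normal libraries for 13 of the 117 (11.1%) and below for 3 (2.56%), against 10.6% and 9.35% of all genes. In the replication list the smallest p-values belonged to Pola2, Gins2, Orc6 and Cdc45, with log2 fold changes of -1.11, 0.92, 0.73 and 0.80. In the mitosis list they belonged to Ckap2, Anln, Cdca5 and Tacc3, at 1.64, 1.55, 1.16 and 0.57. Ckap2, a spindle-associated protein, was at 24.9, 20.6 and 23.7 CPM in CAF against 6.12, 10.1 and 6.25 CPM in normal libraries, with no overlap (adjusted p = 0.103 by edgeR and 0.0205 by DESeq2).

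Among transcriptional regulators E2f3, an activating E2F factor, was at 17.6, 12.6 and 9.87 CPM in CAF against 2.86, 3.8 and 5.00 CPM in normal libraries (log2 fold change 1.79, adjusted p = 0.153 by edgeR). The groups did not overlap for E2f3, and E2f5, Tfdp2 and Lin9 followed in that list at 1.31, -0.95 and 1.08. Of the G1 kinases and their partners, Ccnd3, Cdk4, Skp2 and Cdk6 had log2 fold changes of 0.61, 0.51, 0.83 and 0.52 and adjusted p-values of 0.455 to 0.692.

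The list of CDK inhibitors and arrest genes held the widest differences. Cdkn2a, whose locus encodes the inhibitors p16-INK4a and p19-ARF, had 21, 82 and 73 counts in CAF libraries, against 0, 1 and 2 counts in normal libraries. All CAF libraries (30.7, 11.3 and 9.87 CPM) were above the normal libraries (0, 1.27 and 2.5 CPM). Its log2 fold change was 4.14 (95% interval 1.61 to 6.67), with an adjusted p of 0.11 by edgeR and 0.00859 by DESeq2. Its pooled rate ratio was 21.4, with an exact 95% counting interval of 7.22 to 105 that does not include the spread between mice. With 0 to 2 counts in normal libraries, Cdkn2a passed the filter on low counts through its CAF libraries, and its fold change rests on few normal counts. Gas1, a growth-arrest gene that is also a Hedgehog co-receptor, was at 151, 215 and 341 CPM in CAF against 45.7, 108 and 72.5 CPM in normal libraries (log2 fold change 1.66, adjusted p = 0.12 by edgeR and 0.0199 by DESeq2). The groups did not overlap for Gas1. Gadd45b, a stress-response gene, and Cdkn2b, the neighbour of Cdkn2a that encodes p15-INK4b, had log2 fold changes of -0.99 and -1.69 (adjusted p = 0.245 and 0.391 by edgeR). Cdkn2b was at 11.7, 29.9 and 26.6 CPM in CAF against 74.3, 147 and 8.75 CPM in normal libraries, so that normal library 3 was again below the others, and without it the log2 fold change was -2.25 (adjusted p = 0.0317 by edgeR). Without normal library 3, where 10% of all genes were called, Gadd45b was at -1.28 (adjusted p = 0.0386), and with normal libraries 1 and 2 left out instead Cdkn2b was at 1.5 (adjusted p = 0.52).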

How the data were processed

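Per the submitters' processing notes, reads were handled with cutadapt, STAR, HTSeq and DESeq2 against mm10. The sources used here do not give their versions, the gene annotation, the strand setting or the treatment of molecular identifiers. What was tested here are the raw counts of each gene, as deposited. The same table holds, per the file headers, a normalized signal and a regularized log2 value for each library, not used here, and the authors' log2 fold change with its p-value and adjusted p-value.

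The test was that of edgeR 4.0.16, run in R 4.3.3 (filterByExpr defaults, trimmed mean of M-values, quasi-likelihood F test on the group term, Benjamini-Hochberg adjustment over the 10148 genes kept, threshold 0.05). CPM are on the scaled totals. Standard errors are the absolute log2 fold change over the root of F, which makes the 95% intervals approximate. The test was also run on simulated counts with 200 genes changed. Those counts did not copy the uneven gland RNA or the split by GC content, so that run cannot vouch for the test here. Alternatives were DESeq2 1.42.0, limma-voom (limma 3.58.1), other scalings, other filters, each library left out, normal libraries 1 and 2 left out together, and the number of mice as a covariate.

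All members were named. From the other cell cycle lists, called genes and up to 4 of smallest p per list were named. Members and lists were chosen with earlier results of these data known. No mouse contributed to more than 1 library, as far as the labels tell. Gene positions are from GENCODE M21 (GRCm38, the same build as mm10). Near-identical copies were sought by aligning the last 500 bases of member transcripts to all transcripts (at least 95% identity over 200 bases). Near-identical pseudogenes were found for Ccnb1, Cks2, Mcm7, Rrm2 and Stmn1. Overlaps with other genes were sought within 1000 bases of the gene end.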

Additional observations from a re-analysis of the deposited data

How the results depend on the processing

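edgeR called 112 genes in all, DESeq2 792, limma-voom 65, and 0 were called with normal libraries 1 and 2 left out; leaving out 1 library gave 0 to 1193 (49, 4 and 29 without CAF libraries 1, 2 and 3; 0, 6 and 1193 without normal libraries 1, 2 and 3). Members called were 0 in each alternative but 1, the fit without normal library 3 (range 0 to 1), which called Ccnd2. Other cell cycle genes called were 3 with DESeq2 and 0 to 2 with 1 library left out. With normal libraries 1 and 2 left out, the lone normal library is assumed to vary like the CAF libraries. The median log2 fold change was then 0.99 for members, beside 0.09 with all libraries, and 0.29 for all genes tested, beside 0.06. The log2 ratio of summed CPM was 0.65 for all members, beside 0.23, and 0.94 for replication, beside 0.33. That of mitosis was 0.12, and -0.08 to 0.33 with 1 library left out; the cause was not tested.

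Of 493 fits of single members over 16 alternatives, 62 changed the sign, in 20 members, and 1 passed the threshold. Log2 fold changes of the other sign were, with normal libraries 1 and 2 left out, Mcm5 1.06, Pcna 2.51, Ccnd2 0.85, Cks1b -0.53, Aurka -0.42, Aurkb 0.59, Bub1b -0.013, Cdc20 0.066, Ube2c 0.21 and Mki67 2.35. With limma-voom they were Mcm2 -0.024, Pcna 0.14, Plk1 -0.14, Kif11 -0.16 and Stmn1 -0.42. With the number of mice as covariate they were Mcm5 0.40, Pcna 0.26, Bub1b -0.086, Ube2c 0.046 and Mki67 0.19. With the GC side as block, an alternative chosen after seeing the data, they were Mcm3 0.012, Mcm5 0.014, Cks2 0.98, Mad2l1 -0.073 and Ube2c 0.084. DESeq2 gave Cks2 0.13 and Kif11 -0.021, and upper-quartile scaling Stmn1 -0.0033. With 1 library left out the ranges that crossed 0 were Mcm2 -0.28 to 0.26, Mcm3 -0.41 to 0.017, Mcm5 -0.46 to 0.31, Pcna -0.66 to 0.33, Rrm1 -0.031 to 0.22, Tk1 -0.27 to 0.51, Ccnd1 -0.026 to 1.05, Cks1b -0.091 to 1.19, Cks2 -1.70 to 0.61, Aurka -0.34 to 0.40, Aurkb -0.34 to 0.18, Plk1 -0.32 to 0.40, Bub1b -0.12 to 0.20, Ube2c -0.32 to 0.20, Mki67 -1.01 to 0.016, Kif11 -0.21 to 0.35 and Stmn1 -0.76 to 0.94. No paired analysis was possible because the labels give no replicate numbers that the groups share. CAF library 1 and normal libraries 2 and 3 were the least deeply sequenced, so members on a few counts there are known only within wide counting intervals.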
